A study of Mus musculus with 6 samples.

Results

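The 3 libraries described here came from white adipose tissue of mice fed a high-fat diet (HFD) and given no drug. They were 3 of the 6 libraries of the series and were chosen by their labels for diet and treatment. The series asked which processes a small molecule, tetrahydroberberrubine, alters in white fat of mice on this diet. The 3 libraries from treated mice were not compared here, apart from their levels of the male gland lists, given as a possible source of those transcripts. All mice of the series received the diet, so no lean tissue stands beside these libraries, and the HFD group carried no other treatment, allele or transgene in its labels. Fat depot, strain, sex, age and body weight are not in the labels, nor is whether each library came from a separate animal, so the spread described below is that between 3 samples and may be in part technical.

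White adipose tissue stores triglyceride in large adipocytes that take up fatty acids, esterify them on the lipid droplet and release them again by lipolysis, and that secrete hormones such as leptin and adiponectin. Between the adipocytes lie progenitor cells and fibroblasts in a collagen matrix, a capillary bed and resident immune cells, and fat inside the abdomen is covered by a mesothelium. In obesity macrophages gather around dying adipocytes, take up their lipid and can divide in place, and the matrix around the adipocytes thickens.

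Poly(A) RNA of each sample was sequenced as paired reads, and the deposited table gave 77.0e6, 69.3e6 and 74.0e6 counts in HFD 1, HFD 2 and HFD 3. A count of 0, with an upper limit of 3 counts, allowed up to 0.0390, 0.0433 and 0.0405 counts per 1e6 counts (CPM) in these libraries. Of 32759 genes, 4848 had no count in any of the 3, and 13503 reached 0.5 FPKM, the number of fragments per kilobase of transcript scaled to depth, in all 3. The 10 genes with the most counts held 6.53% (95% Wilson interval 6.53 to 6.54), 7.91% (7.91 to 7.92) and 8.12% (8.11 to 8.13) of counts, and the 100 with the most held 23.2%, 25.9% and 25.4%. Mitochondrial transcripts took 3.49%, 4.11% and 3.75% and those of 88 ribosomal protein genes 1.05%, 0.960% and 1.07%. No pair of libraries agreed within counting error, with a chi-square per gene of 426, 319 and 240.2. None was thus a copy of another, but this value does not tell libraries of the same RNA from libraries of separate animals.

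Levels of 1 gene across libraries are given below as CPM of the total count, in the order HFD 1, HFD 2 and HFD 3, and levels of different genes are compared as the authors' FPKM. A gene was counted as past 2-fold when log2(CPM + 0.5) differed by at least 1 between its highest and its lowest library, among the 14689 genes with a mean of at least 1 CPM. With 1 group there was no contrast to test, and every value below is a description of these 3 libraries. In bulk tissue, fewer cells of a type and less RNA per cell cannot be told apart, so a lower list of markers is not by itself a smaller number of cells.

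The tissue label was first set against 7 markers of adipocytes and of the cells around them. Adiponectin (Adipoq), an insulin-sensitising hormone made by adipocytes, stood at 1469, 1904 and 2677 CPM. Leptin (Lep), the satiety hormone that follows fat cell size, stood at 1705, 4223 and 1503 CPM, and Fabp4, the fatty acid carrier of the adipocyte cytoplasm, at 4746, 9085 and 9588 CPM. These 3 adipocyte genes ranked between 15 and 70 by FPKM in every library, so each was among the 100 most abundant. Leptin was highest in HFD 2, where it was 2.81-fold above its lowest library, whereas Adipoq was highest in HFD 3. The ratio of Lep to Adipoq in FPKM was therefore 0.478, 0.913 and 0.231, a 3.95-fold span within 1 group.

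The 4 stromal markers were present in every library but at different levels. Adgre1, which encodes the macrophage surface protein F4/80, stood at 519, 135 and 209.6 CPM and was highest in HFD 1. Col1a1, a chain of the main fibrillar collagen, stood at 830.1, 420.5 and 179.7 CPM with HFD 1 highest and HFD 3 lowest. Pecam1, the endothelial junction protein CD31, stood at 445, 553 and 633 CPM with a mean of 544 ± 94.1 (SD, n = 3). Mesothelin (Msln), a surface protein of the mesothelium, ranged most of the 7, from 2.14 CPM in HFD 3 and 14.3 CPM in HFD 1 to 123 CPM in HFD 2.

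Haptoglobin (Hp), a haemoglobin-binding acute phase protein that fat also makes, was the most abundant of the genes ranked, with mitochondrial, ribosomal protein, predicted, pseudogene and receptor segment genes left out. Its level was 3772, 4613 and 3032 FPKM, a mean of 3805 ± 791 (SD, n = 3). Carbonic anhydrase 3 (Car3), a cytosolic enzyme typical of adipocytes and slow muscle, followed at 2112, 1712 and 3731 FPKM. The next places were held by B2m, the light chain of MHC class I, by gelsolin (Gsn), an actin-severing protein, and by apolipoprotein E (Apoe), at means of 2234 ± 211, 2123 ± 514 and 2025 ± 275 FPKM.

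Of the 20 most abundant genes, 7 were in the mature adipocyte list: Car3, the fatty acid transporter Cd36, the droplet protein Cidec, Fabp4, Adipoq, the secreted protease adipsin (Cfd) and Pck1, whose enzyme makes the glycerol backbone for re-esterification. The stearoyl-CoA desaturase Scd1, which makes monounsaturated fat, had 1152, 2239 and 1613 FPKM and was highest in HFD 2. Adipsin, at 674, 919 and 1799 FPKM, and Pck1, at 724, 658 and 1538 FPKM, were both highest in HFD 3. Prosaposin (Psap), a precursor of lysosomal lipid-degrading cofactors, went another way, at 2339, 953 and 1468 FPKM with HFD 1 highest, and so did the lysosomal protease Ctsd at 1622, 825 and 1039 FPKM. The top of the ranking was thus shared only in part: 13 genes were in the 20 highest of every library, and 67 in the 100 highest of every library.

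Another 17 genes reached the 100 highest in HFD 1 alone, 9 in HFD 2 alone and 7 in HFD 3 alone. Those of HFD 1 included the complement genes C1qa, C1qb and C1qc, the macrophage lysosomal gene Cd68, and Gpnmb and Lgals3, genes of lipid-laden macrophages. For C1qb the level was 542, 208 and 222 FPKM. Those of HFD 2 included the metallothionein Mt2, at 47.6, 263 and 87.3 FPKM, and the mitophagy receptor Bnip3, at 88.1, 241 and 193 FPKM. Those of HFD 3 included the lipolysis inhibitor G0s2, at 175, 209 and 303 FPKM, and Retnla, a product of alternatively activated macrophages, at 143, 65.9 and 224 FPKM. The members of these sets were picked by rank, and their values describe that rank only.

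**Figure D1:**
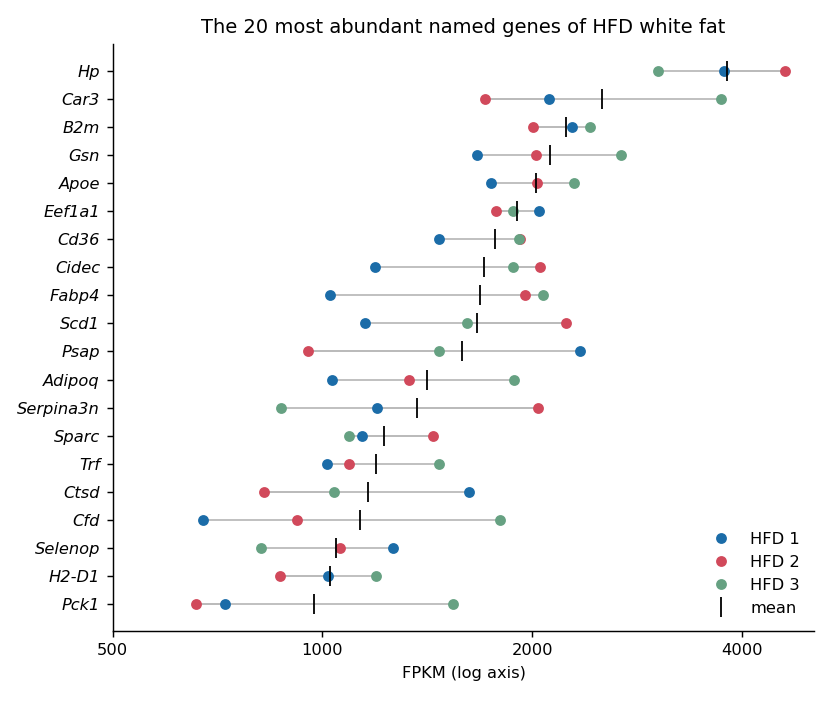
FPKM (log axis) of the 20 most abundant named genes in each of the 3 HFD libraries, as points coloured by library, with a black tick at the mean and a grey line over the range. Hp stands at the top, with 3032 to 4613 FPKM. Of the 7 mature adipocyte genes, Cd36, Cidec, Fabp4, Adipoq and Cfd are lowest in HFD 1, and Car3 and Pck1 in HFD 2. Psap and Ctsd are highest in HFD 1.

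Across all genes, 2526 of 14689, or 17.2%, were past 2-fold between the highest and the lowest library. The median gene had a highest-to-lowest ratio of 1.38 and a coefficient of variation (CV, SD over mean) of 17.6%, against 2.47% for counting error alone. The biological coefficient of variation, which edgeR estimates as the spread between samples beyond counting error, was 0.326 as 1 value over all genes. The square root of the median of DESeq2's gene-wise dispersions, a different statistic, was 0.169. The size of the spread depended on level: the median CV was 27.2% for the 4843 genes between 1 and 10 CPM, 14.4% for 7761 genes between 10 and 100 CPM, 14.6% for 1995 genes between 100 and 1000 CPM and 17.0% for the 90 genes above. Above 10 CPM the spread did not shrink further with depth, although the counting error fell from a median of 2.07% to 0.271%.

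The 3 pairs of libraries differed in how far apart they stood. Pearson's r of log2(CPM + 0.5) over the 14689 genes was 0.95 for HFD 1 and HFD 2, 0.967 for HFD 1 and HFD 3 and 0.962 for HFD 2 and HFD 3, where genes are not independent replicates. The same pairs differed at least 2-fold in 1734, 1193 and 1077 genes. Leaving out HFD 1 lowered the count past 2-fold from 2526 to 1087, leaving out HFD 2 lowered it to 1179, and leaving out HFD 3 lowered it to 1769, where a range over 2 libraries is by construction no wider than over 3.

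**Figure D2:**
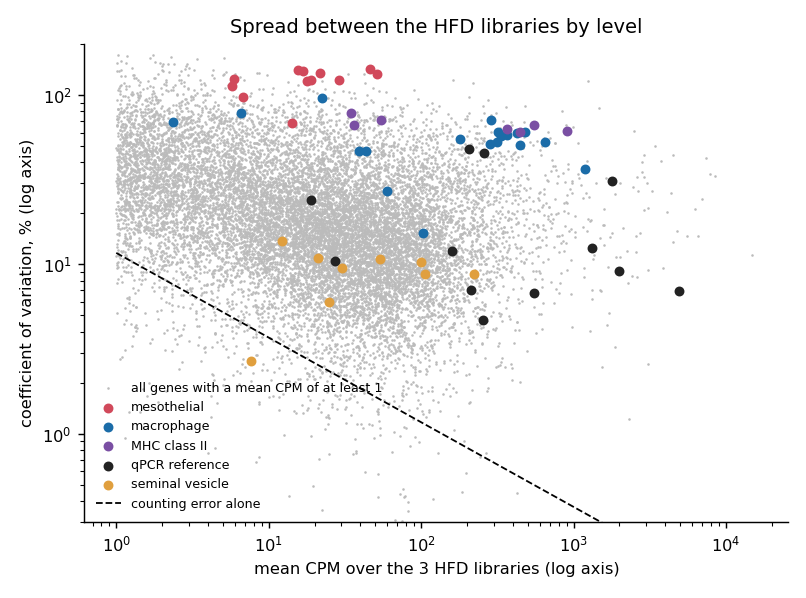
Coefficient of variation over the 3 HFD libraries (%, log axis) against mean CPM (log axis), 1 grey point per gene with a mean of at least 1 CPM, with members of 5 lists in colour and the dashed line showing counting error alone. Mesothelial members lie at the top, macrophage and MHC class II members above most genes of their level, and seminal vesicle members low; a few genes with a CV under 0.3% lie outside the axis.

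The mature adipocyte list of 24 genes summed to 43093, 57927 and 65889 CPM, a mean of 55636 ± 11569 (SD, n = 3), and took 4.31% (95% Wilson interval 4.30 to 4.31), 5.79% (5.79 to 5.80) and 6.59% (6.58 to 6.59) of counts. All 24 members had a mean above 1 CPM. HFD 3 was the highest library for 14 members, against 33.3% of all genes, HFD 2 for 9, against 26.3%, and HFD 1 for 1, against 40.4%. Past 2-fold were 8 members, against 17.2% of all genes, and 6 of these were highest in HFD 3, against 2.95% of all genes. Among the 8, HFD 1 was lowest for 3, against 3.89% of all genes, and HFD 2 for 4, against 7.67%. The median ratio of highest to lowest was 1.79 over the list and 1.38 over all genes.

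Perilipin 1 (Plin1), which coats the droplet and gates lipolysis, stood at 1185, 1411 and 1479 CPM, and hormone-sensitive lipase (Lipe) at 1719, 2358 and 2284 CPM. Adipose triglyceride lipase (Pnpla2), which takes the first fatty acid off triglyceride, stood at 1624, 3206 and 2949 CPM and lipoprotein lipase (Lpl), which frees fatty acids from circulating particles, at 5712, 4672 and 6289.5 CPM. The transcription factors that set adipocyte identity, Pparg and Cebpa, stood at 194, 266 and 249 CPM and 184, 189 and 242 CPM. None of these 6 genes was past 2-fold, and all but Lpl were lowest in HFD 1.

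Among the other members, Adrb3, the receptor through which noradrenaline starts lipolysis, stood at 136, 156 and 411 CPM, 2.64-fold higher in HFD 3 than in the nearer of the others. An antisense gene over the same region, Gm45470, moved with it at 44.0, 60.1 and 149 CPM, and without a stated strand setting the reads of this pair cannot be told apart. The glycerol channel Aqp7 stood at 208, 167 and 359 CPM, likewise highest in HFD 3. Dgat2, the enzyme of the last step of triglyceride synthesis, was the exception in the list: it stood at 818, 289.7 and 443 CPM and was the member highest in HFD 1. The glucose transporter Slc2a4 stood at 82.4, 70.3 and 116 CPM and glycerol phosphate dehydrogenase (Gpd1) at 607, 733 and 447 CPM, with HFD 3 highest for the first and HFD 2 for the second.

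Hormones and other secreted products of fat, 17 of 18 listed genes in the table, summed to 5857, 11300.5 and 9766 CPM. Their median ratio was 2.59, and 10 of 17 were past 2-fold, against 17.2% of all genes. Of these, 5 were highest in HFD 2, against 5.27% of all genes, and 4 in HFD 3, against 2.95%. Without Lep the sum of the list was highest in HFD 3. Resistin (Retn), a hormone of mouse adipocytes, stood at 106, 188 and 200.1 CPM and retinol-binding protein Rbp4 at 76.8, 113 and 161 CPM. Vegfa, the vascular growth factor, stood at 179, 398 and 472 CPM and angiotensinogen (Agt) at 148, 383 and 362 CPM, both lowest in HFD 1. Lipocalin 2 (Lcn2), an iron-scavenging protein of inflamed fat, stood at 139, 392 and 90.1 CPM and was highest in HFD 2. Chemerin (Rarres2), by comparison, differed by 1.04-fold, at 201, 193 and 198 CPM. Itln1 was not analysed here.

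The 5 genes of the fat expansion list, known from mice whose fat depots grow fast, summed to 3757, 6452 and 3978 CPM. Lep held 52.4% of that sum. Of the rest, Mest, an imprinted gene that marks expanding adipocytes, stood at 927, 874 and 1069.8 CPM, the Wnt inhibitor Sfrp5 at 276, 311 and 397 CPM and the natriuretic peptide clearance receptor Npr3 at 767, 1001 and 921 CPM. These 3 differed by at most 1.43-fold, whereas Bmp3, a ligand of the BMP family, stood at 81.0, 43.8 and 88.5 CPM and was lowest in HFD 2.

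The lipogenesis list of 13 genes summed to 7484, 13446 and 10026 CPM, of which Scd1 alone held 81.7%. Fatty acid synthase (Fasn) stood at 329.7, 687 and 298 CPM, highest in HFD 2, and Thrsp, a lipogenic cofactor, at 95.7, 83.6 and 258 CPM, highest in HFD 3. These 2 of 13 were past 2-fold, against 17.2% of all genes, and the other 11 were not. Among them the regulator Srebf1 stood at 172, 141 and 173 CPM, acetyl-CoA carboxylase (Acaca) at 244, 319 and 323 CPM and the citrate-splitting enzyme Acly at 240.4, 202 and 195 CPM.

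Genes of thermogenic fat differed widely in level. Ucp1, the uncoupling protein of brown and beige adipocytes, had 31, 0 and 4 counts, which in HFD 2 allows up to 0.0433 CPM. Of 13 listed genes in the table, 8 had a mean of at least 1 CPM, and the list summed to 89.3, 82.6 and 98.9 CPM. The cofactor Ppargc1a, whose product PGC1α the series title names, stood at 2.32, 3.57 and 1.99 CPM, the determination factor Prdm16 at 9.49, 7.64 and 8.63 CPM and the droplet protein Cidea at 1.32, 0.924 and 3.15 CPM. Cidea and the proton channel gene Otop1, at 5.22, 1.28 and 5.41 CPM, were the 2 of 8 past 2-fold, against 17.2% of all genes. Both were lowest in HFD 2, against 7.67%. Cox8b, Cox7a1, Dio2 and Elovl3, further genes of thermogenic adipocytes, averaged below 1 CPM, and Zic1 was not analysed here. Ebf2 and the potassium channel Kcnk3, at 34.8, 30.8 and 39.4 CPM and at 26.3, 23.5 and 31.0 CPM, made up most of the sum.

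The respiratory chain list of 13 nuclear genes summed to 2273, 2617 and 2868 CPM and the 13 protein genes of the mitochondrial genome to 33716, 39645 and 36098 CPM. No member of either list was past 2-fold, against 17.2% of all genes. HFD 3 was highest for 10 of the 13 nuclear genes, against 33.3% of all genes. Atp5b, the catalytic subunit of ATP synthase, stood at 697, 894 and 883 CPM, and Sdha, the flavoprotein of complex II, at 310.3, 325 and 418 CPM. Of the mitochondrial genes, HFD 2 was highest for 10 of 13, against 26.3% of all genes, with mt-Co1 at 13186, 16547 and 14862 CPM. The nuclear and the mitochondrial genes thus differed in their highest library.

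**Figure D3:**
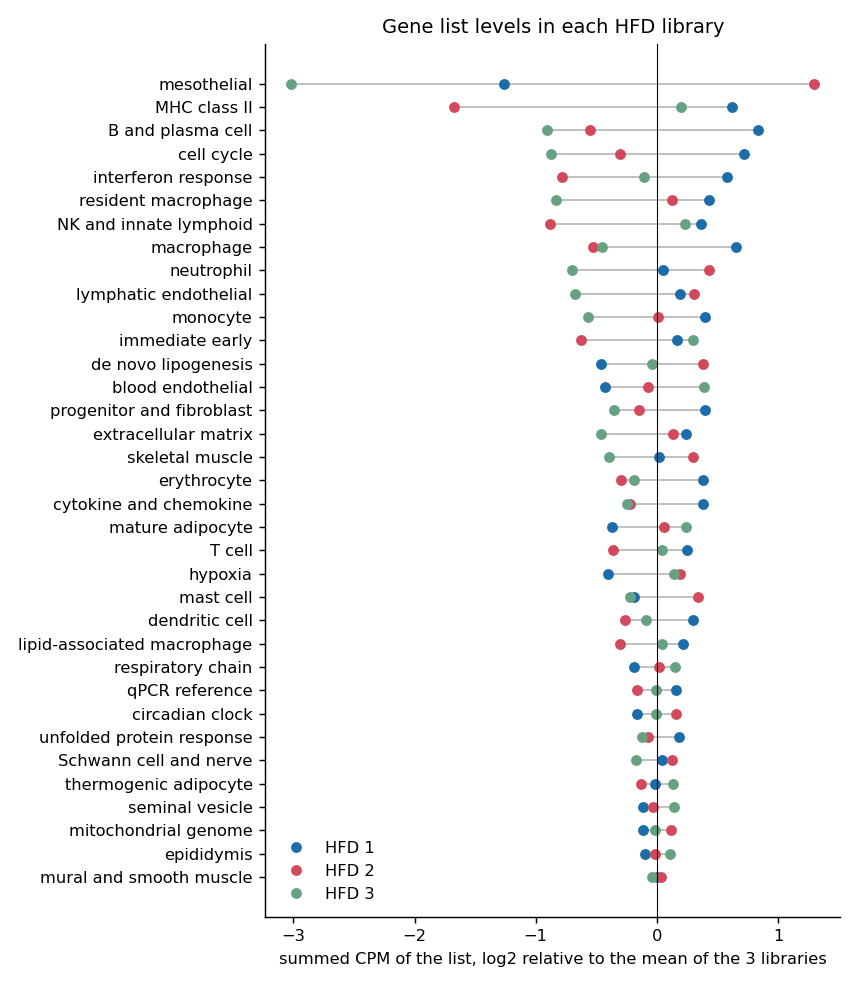
Summed CPM of the gene lists plotted, in each HFD library, on a log2 scale relative to the mean of the 3 libraries. Lists are ordered by their span. Not plotted are the focus marker, fat expansion, adipokine, eosinophil, kidney, skin, lymph node, sex-linked, depot, glucocorticoid and single-library lists. The mesothelial list spans most, from HFD 3 to HFD 2, the macrophage, MHC class II, cell cycle and interferon lists are highest in HFD 1, the blood endothelial and mature adipocyte lists in HFD 3, and the mural list shows almost no span.

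Progenitor and fibroblast genes, 14 in all, summed to 3395, 2323 and 2023 CPM, with HFD 1 highest for 11 of 14, against 40.4% of all genes. Past 2-fold were 5, of which 4 were highest in HFD 1, against 8.97% of all genes, and the median ratio was 1.74. Pi16, a marker of an early progenitor of the connective tissue between lobules, stood at 68.2, 9.67 and 14.2 CPM, 4.80-fold higher in HFD 1 than in the nearer of the others. Lumican (Lum), a collagen-binding proteoglycan, stood at 199, 36.0 and 50.8 CPM. Dpp4, another marker of the early progenitor, did not follow Pi16, at 44.6, 44.2 and 24.5 CPM, nor did Ly6a, which encodes Sca-1, at 135, 124 and 119.6 CPM. Pdgfra, the growth factor receptor of adipose progenitors, stood at 147, 90.2 and 71.7 CPM and decorin (Dcn), a small proteoglycan, at 1349.8, 1139 and 968 CPM.

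Matrix genes, 19 in all, summed to 20927, 19403 and 12841 CPM, with HFD 1 highest in CPM of the total count and HFD 2 highest under TMM scaling. Of them, 10 were past 2-fold with HFD 3 lowest, against 5.64% of all genes, while 9 were past 2-fold with HFD 1 highest, against 8.97%. The fibrillar collagen Col3a1 stood at 2873, 1027 and 527 CPM and Col1a2 at 1131, 607 and 369 CPM, in the same order as Col1a1. Fibronectin (Fn1) stood at 1543, 755 and 385 CPM and fibrillin 1 (Fbn1) at 609, 276 and 142 CPM, again with HFD 1 highest and HFD 3 lowest. The basement membrane collagens were ordered otherwise, with HFD 2 highest: Col4a1 stood at 2710.5, 3608 and 2438 CPM and Col4a2 at 1666, 2414 and 1514 CPM, neither past 2-fold. Lox, the enzyme that crosslinks collagen, stood at 221, 717 and 150.0 CPM and the protease inhibitor Timp1 at 16.7, 26.5 and 2.41 CPM, both highest in HFD 2. Collagen VI, a matrix protein prominent in fat, was mixed, since Col6a3 stood at 306, 120.0 and 154 CPM while Col6a1, at 983, 952 and 661 CPM, was not past 2-fold. The ratio of Col1a1 to Col3a1 in FPKM was 0.432, 0.613 and 0.510.

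Blood endothelial genes, 15 in all, summed to 2259, 2901 and 3984 CPM. HFD 3 was highest for 14 of 15, against 33.3% of all genes. Past 2-fold were 5, each highest in HFD 3, against 2.95% of all genes, and each lowest in HFD 1, against 3.89%. The tight junction gene Cldn5 stood at 77.1, 172 and 273 CPM, the VEGF receptor Kdr at 263, 387 and 605 CPM, and Gpihbp1, which carries lipoprotein lipase across the capillary wall, at 96.7, 207 and 269 CPM. Robo4 and Sox17, a guidance receptor and an arterial transcription factor, were the others, at 123, 131 and 246 CPM and at 27.1, 55.4 and 70.8 CPM. The cadherin Cdh5 stood at 405, 474 and 651 CPM and was not past 2-fold. Von Willebrand factor (Vwf), the exception, stood at 143, 124 and 115 CPM. Relative to the mature adipocyte list the endothelial sum was 0.0524, 0.0501 and 0.0605, a span of 1.21-fold.

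Mural and smooth muscle genes, 12 in all, summed to 1493, 1529.5 and 1455 CPM, a span of 1.05-fold and the narrowest of the lists plotted. The melanoma cell adhesion molecule Mcam, made by pericytes and also by endothelium, held 47.2% of that sum, and without it the span was 1.31-fold with HFD 1 highest. Smooth muscle actin (Acta2) stood at 218, 213 and 146 CPM and smooth muscle myosin (Myh11) at 69.3, 63.5 and 42.8 CPM. Rgs5, a pericyte gene, stood at 238, 87.3 and 203 CPM, and Higd1b, another, at 2.30, 4.78 and 8.00 CPM, so single members differed although the sum did not. Lymphatic endothelial genes, 7 in all, summed to 239.6, 259 and 132 CPM, of which Lyve1, a hyaluronan receptor shared with resident macrophages, held 52.8%. The lymphatic identity factor Prox1 stood at 1.31, 2.14 and 0.568 CPM, the receptor Flt4 at 27.6, 34.3 and 45.3 CPM, Mmrn1, a secreted glycoprotein, at 13.9, 28.7 and 9.53 CPM and the guidance protein Reln at 5.13, 15.6 and 5.55 CPM. The remaining members, Pdpn and Ccl21a, stood at 28.9, 31.6 and 13 CPM and at 14.8, 8.83 and 11.3 CPM. Flt4 was highest in HFD 3, unlike Prox1, Pdpn, Mmrn1 and Reln, which were highest in HFD 2.

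The mesothelial list differed most of all. Its 12 genes summed to 104, 614 and 30.8 CPM, a span of 19.9-fold, with shares of 0.0104% (95% Wilson interval 0.0102 to 0.0106), 0.0614% (0.0609 to 0.0620) and 0.00308% (0.00296 to 0.00321) of counts. HFD 2 was highest and HFD 3 lowest for 12 of 12 genes, and all 12 were past 2-fold, against 5.27% of all genes with HFD 2 highest and 5.64% with HFD 3 lowest. The median ratio was 17.5, against 1.38 over all genes. Uroplakin 3b (Upk3b), a membrane protein of mesothelium, stood at 18.5, 129 and 5.70 CPM. Keratin 19 (Krt19), an epithelial filament, stood at 5.84, 43.7 and 1.05 CPM, and Upk1b, another uroplakin, at 7.6, 55.2 and 2.03 CPM. Wt1, a transcription factor of mesothelium and of visceral fat progenitors, stood at 13.6, 24.1 and 4.80 CPM, 5.02-fold between highest and lowest, the smallest ratio of the 12. Lrrn4, Muc16 and Gpm6a stood at 10.7, 70.0 and 6.41 CPM, at 4.84, 40.5 and 1.05 CPM and at 9.10, 45.2 and 2.31 CPM. Without HFD 2 the mean of the list was 67.3 CPM in place of 249.7 CPM. How much mesothelium each piece of tissue carried was not tested.

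The depot is not given, and genes that differ by depot in mice were described for that reason. Of 9 listed genes, 5 had a mean of at least 1 CPM, and the list summed to 58.8, 69.9 and 62.6 CPM. Hoxc8 held 58.8% of the sum, at 34.9, 32.4 and 45.2 CPM, followed by Wt1. Hoxa5 stood at 3.19, 4.55 and 5.96 CPM, Nr2f1 at 4.36, 5.53 and 4.43 CPM and Hoxc9 at 1.71, 2.27 and 0.784 CPM. Tbx15, Shox2, En1 and Hoxc10 averaged below 1 CPM, with Tbx15 at 0.0779, 0 and 0.432 CPM. Of the 5 genes above 1 CPM, 2 were past 2-fold, Wt1 and Hoxc9, against 17.2% of all genes. Both were highest in HFD 2, against 5.27% of all genes, and lowest in HFD 3, against 5.64%. Wt1 is also in the mesothelial list. Without Hoxc8 the sum was highest in HFD 2, with a span of 2.15-fold. The span of the whole list, 1.19-fold, was narrower than the 19.9-fold of the mesothelial list.

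**Figure D4:**
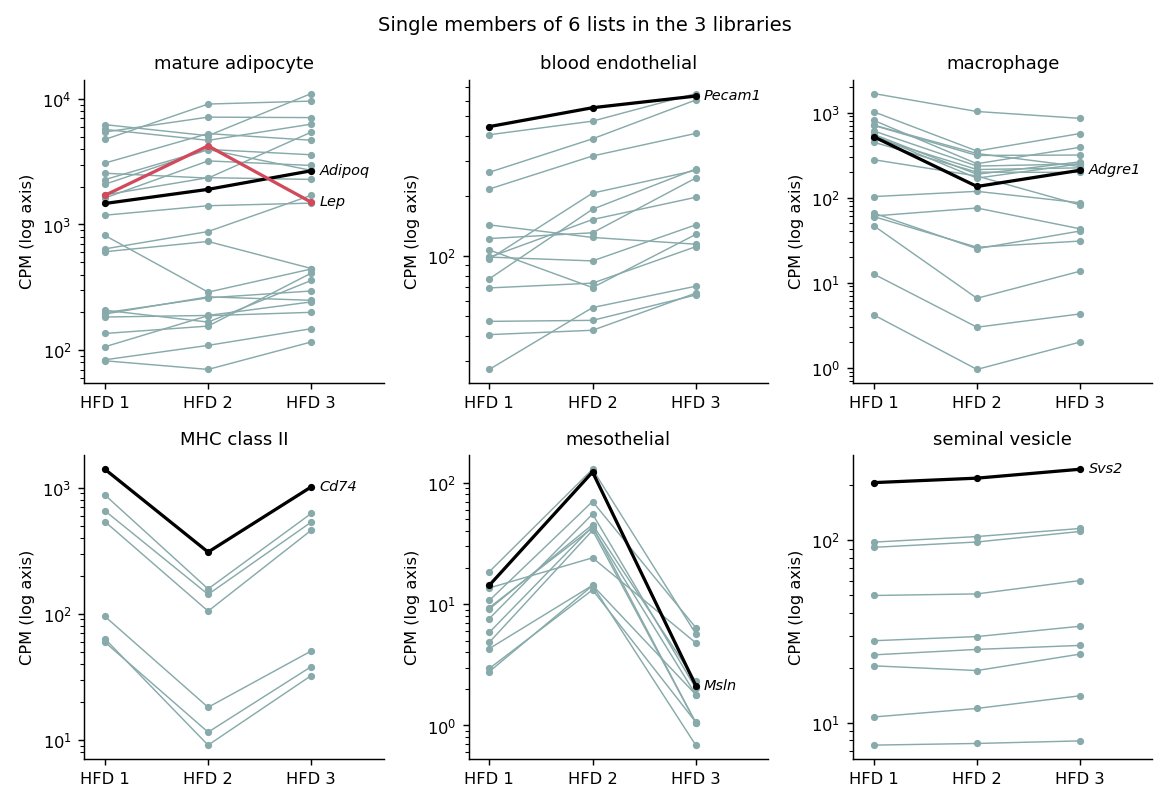
CPM (log axis) of each member of 6 lists in HFD 1, HFD 2 and HFD 3, with 1 line per gene and 1 named gene in black, or red for Lep. The lines join values of the same gene and imply no order of the libraries; mesothelial genes are all highest in HFD 2 and lowest in HFD 3 by ratios that differ from gene to gene, MHC class II genes are all highest in HFD 1 and lowest in HFD 2, and the seminal vesicle genes are almost level.

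Macrophage genes, 19 in all, summed to 8724, 3848 and 4054 CPM, a mean of 5542 ± 2757 (SD, n = 3). HFD 1 was highest for 17 of 19, against 40.4% of all genes, and 16 were past 2-fold with HFD 1 highest, against 8.97%. HFD 2 was lowest for 13 of these 16, against 7.67% of all genes. The median ratio was 2.89. Csf1r, the receptor on which macrophages depend for survival, stood at 706, 313 and 316 CPM, Cd68 at 538, 169 and 249 CPM and the protease Ctss at 809, 250.1 and 390.0 CPM. Fcgr1, a high-affinity antibody receptor, stood at 46.6, 6.54 and 13.6 CPM, a 7.13-fold span, the widest of the list. The lysozyme gene Lyz2 stood at 1673, 1029 and 854 CPM, and Cd14 and Mertk, highest in HFD 2 and not past 2-fold, at 60.7, 75.3 and 42.9 CPM and at 103, 118 and 86.9 CPM. Relative to the mature adipocyte list the macrophage sum was 0.202, 0.0664 and 0.0615, so HFD 1 stood 3.29-fold above HFD 3.

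Genes of lipid-associated macrophages, the cells that ring dying adipocytes, gave 10 of 17 members past 2-fold, each with HFD 1 highest, against 8.97% of all genes. The median ratio was 3.74. Trem2, the lipid-sensing receptor of these cells, stood at 141, 19.8 and 58.1 CPM, Gpnmb, a lysosomal glycoprotein, at 1561, 226 and 731 CPM, and the elastase Mmp12 at 419, 22.8 and 172 CPM. The proton pump subunit Atp6v0d2 stood at 233, 23.5 and 98.1 CPM, the lysosomal acid lipase Lipa at 691, 184 and 312 CPM, and Itgax, which encodes CD11c, at 164, 43.1 and 62.6 CPM. Each of these 6 was highest in HFD 1 and lowest in HFD 2, with HFD 3 between. Osteopontin (Spp1) was ordered otherwise, at 57.6, 17.7 and 11.4 CPM. The sum of the list, 19398, 13474 and 17154 CPM, spanned 1.44-fold. Lpl held 33.3% of it, and Lpl and Apoe are also made by adipocytes.

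Resident macrophage genes, 7 in all, summed to 1889, 1535 and 789 CPM and were all past 2-fold, against 17.2% of all genes. For 6 of them HFD 1 was highest, against 8.97% of all genes past 2-fold with HFD 1 highest. The mannose receptor Mrc1 stood at 712, 329.7 and 231 CPM, Lyve1 at 148, 138 and 46.3 CPM and the phosphatidylserine receptor Timd4 at 15.9, 3.80 and 4.15 CPM. The folate receptor Folr2 stood at 136, 56.4 and 42.8 CPM, the transglutaminase F13a1 at 505, 481 and 205 CPM and the lectin Cd209f at 89.4, 23.3 and 34.4 CPM. Cd163, the haemoglobin scavenger receptor, was the exception at 282, 502 and 225 CPM, highest in HFD 2. HFD 3 was lowest for 5 of the 7, against 5.64% of all genes, and HFD 2 for 2, against 7.67%. Lyve1 and F13a1 stood at like levels in HFD 1 and HFD 2. Without Mrc1 the sum was highest in HFD 2, with a span of 2.16-fold. Relative to the general macrophage list the resident sum was 0.217, 0.399 and 0.195.

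Among 6 monocyte genes, with a sum of 156, 119 and 79.9 CPM, Ccr2, the receptor for recruitment, stood at 110.4, 44.8 and 63.9 CPM, highest in HFD 1. Plac8, Ms4a4c and Ly6c2, at 11.2, 5.10 and 2.77 CPM, at 5.91, 3.09 and 1.41 CPM and at 9.52, 4.6 and 6.15 CPM, shared that highest library. The remaining 2 were past 2-fold and highest in HFD 2, as were most of the neutrophil genes. Of these 2 monocyte genes, Chil3, a secreted chitinase-like protein, stood at 11.5, 53.1 and 2.28 CPM. Without Ccr2, which held 61.8% of the sum, HFD 2 was the highest library of the list. The dendritic cell list of 10 genes, 8 of them above 1 CPM, summed to 317, 215 and 243 CPM, of which the lectin Clec10a, shared with macrophages, held 75.9%. Cd209a, a marker of monocyte-derived dendritic cells, stood at 5.52, 2.99 and 10.3 CPM, Clec9a, of the cross-presenting type, at 8.78, 4.98 and 9.26 CPM and the transcription factor Zbtb46, which endothelium also makes, at 28.7, 31.9 and 49.1 CPM.

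MHC class II genes, whose products show extracellular peptides to helper T cells, had 7 listed members. They summed to 3691, 752 and 2757 CPM. HFD 1 was highest and HFD 2 lowest for all 7, and all 7 were past 2-fold, against 8.97% of all genes with HFD 1 highest and 7.67% with HFD 2 lowest. The chains H2-Aa, H2-Ab1 and H2-Eb1 stood at 877, 157 and 625 CPM, at 538, 105 and 460.2 CPM and at 656, 142 and 534 CPM. The invariant chain Cd74, which guards the peptide groove, stood at 1402, 308 and 1016 CPM. The peptide-loading genes H2-DMa and H2-DMb1 stood at 59.5, 11.5 and 38.1 CPM and at 95.3, 18.1 and 50.7 CPM, and Ciita, the coactivator that switches the set on, at 63.3, 9.06 and 32.3 CPM. Their ratios lay between 4.54 and 6.98. Relative to the macrophage list the sum was 0.423, 0.195 and 0.680, so HFD 3 had the most class II signal per macrophage signal although HFD 1 had the most of each.

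Class II promoters are known for a conserved module that ends in a Y box, an inverted CCAAT box bound by the factor NF-Y. The windows from 250 bases before to 50 after the start of the gene were searched on both strands for TGATTGG, which holds the reverse of CCAAT and so overlaps that motif. Windows existed for 4 of the 7 genes, and 3 of those genes held the motif, as did 7.82% of all 32851 windows. H2-DMa had a window and no match; H2-Ab1, Cd74 and Ciita had none in the table. The 3 matching genes are shown as 200 bases from 150 before to 50 after the start, RefSeq, GRCm38.p6, with the motif in capitals. The order of libraries did not set them apart, since all 7 genes, H2-DMa among them, were highest in HFD 1 and lowest in HFD 2. H2-Aa lies at chr17:34287774-34287973 on the minus strand, H2-Eb1 at chr17:34305717-34305916 on the plus strand and H2-DMb1 at chr17:34153041-34153240 on the plus strand. A match is a description of the letters and not a measured binding site.
H2-Aa: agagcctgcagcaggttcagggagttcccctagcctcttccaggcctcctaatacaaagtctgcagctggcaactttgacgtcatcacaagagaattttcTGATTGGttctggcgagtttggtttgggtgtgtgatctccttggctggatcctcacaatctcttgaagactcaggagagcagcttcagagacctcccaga
H2-Eb1: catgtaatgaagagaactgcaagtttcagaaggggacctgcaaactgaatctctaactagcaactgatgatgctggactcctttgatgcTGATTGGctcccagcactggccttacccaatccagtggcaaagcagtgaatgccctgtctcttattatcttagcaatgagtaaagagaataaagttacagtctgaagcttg
H2-DMb1: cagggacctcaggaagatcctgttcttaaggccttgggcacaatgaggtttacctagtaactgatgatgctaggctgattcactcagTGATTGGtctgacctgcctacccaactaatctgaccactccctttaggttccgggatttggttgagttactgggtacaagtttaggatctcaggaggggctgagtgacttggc

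Genes of the interferon response had the same highest and lowest library as the class II genes. The 10 genes summed to 472, 184 and 293 CPM, HFD 1 was highest and HFD 2 lowest for 10 of 10, against 40.4% of all genes with HFD 1 highest, and 7 were past 2-fold, against 8.97% with HFD 1 highest and 7.67% with HFD 2 lowest. The antiviral synthetase Oas1a stood at 40.5, 7.43 and 16.3 CPM, the regulator Irf7 at 79.9, 25.6 and 31.7 CPM and the antiviral GTPase Mx1 at 11.6, 2.15 and 3.77 CPM. The 3 that were not past 2-fold were Rsad2, Usp18 and Bst2, at 26.7, 15.5 and 21.5 CPM, at 9.73, 5.49 and 7.07 CPM and at 26.1, 15.0 and 24.5 CPM.

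Signals of lymphocytes were low. The 12 T cell genes summed to 17.1, 11.2 and 14.9 CPM, and 6 of them averaged at least 1 CPM. Cd3e, a chain of the T cell receptor complex, stood at 1.70, 0.779 and 1.28 CPM, Cd4 at 0.701, 0.736 and 0.892 CPM, Cd8a at 1.9, 1.18 and 1.51 CPM and Foxp3, the factor of regulatory T cells, at 0.442, 0.173 and 0.176 CPM. NK and innate lymphoid genes had a sum of 31.5, 13.2 and 28.6 CPM. Of the 9 above 1 CPM, 5 were past 2-fold with HFD 2 lowest, against 7.67% of all genes. Gzma, a granzyme, stood at 2.12, 0.390 and 2.92 CPM and Il1rl1, the IL-33 receptor, at 14.6, 4.79 and 9.68 CPM. The B and plasma cell list summed to 273, 104 and 81.7 CPM, of which Ighm, the IgM heavy chain, held 75.1%. Ighm stood at 198, 76.5 and 70.4 CPM, the light chain Igkc at 53.1, 18.5 and 6.18 CPM and the joining chain Jchain at 10.6, 3.26 and 1.34 CPM, while the B cell gene Ms4a1 stood at 2.01, 0.433 and 0.338 CPM. For each of these 4 B and plasma cell genes HFD 1 was highest.

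Granulocyte genes were also low, with another order of libraries. Of 9 neutrophil genes in the table, 8 averaged at least 1 CPM, and 6 were past 2-fold with HFD 2 highest, against 5.27% of all genes. The calprotectin chains S100a8 and S100a9 stood at 0.974, 3.84 and 0.405 CPM and at 1.74, 8.08 and 0.959 CPM, the collagenase Mmp8 at 1.30, 11.2 and 0.378 CPM and Retnlg, a resistin-like protein of neutrophils, at 0.766, 5.08 and 0.473 CPM. The granule protein Ngp had 8, 466 and 4 counts, and Camp, another, had 0, 33 and 0 counts. Csf3r, the receptor for G-CSF, and Mmp9, both also made by other myeloid cells, were highest in HFD 1, at 28.4, 19.8 and 11.9 CPM and at 25.6, 19.6 and 21.2 CPM. Mast cell genes summed to 41.3, 59.6 and 40.3 CPM. Their proteases Cpa3, Cma1, Mcpt4 and Tpsb2 stood at 5.08, 2.77 and 1.73 CPM, at 2.97, 2.27 and 1.11 CPM, at 3.69, 0.895 and 1.81 CPM and at 3.81, 3.49 and 1.82 CPM, with HFD 1 highest, while Kit and Hdc were highest in HFD 2. The 4 eosinophil genes summed to 2.43, 0.779 and 0.892 CPM: Epx had no count in any library, and Siglecf, Ccr3 and Prg2 each averaged below 1 CPM.

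Cell cycle genes, 22 in all, summed to 572, 283 and 191 CPM. HFD 1 was highest for 21 of 22, all 21 past 2-fold, against 8.97% of all genes. Past 2-fold with HFD 3 lowest were 19, against 5.64% of all genes. The median ratio was 3.32. Mki67, the proliferation antigen Ki-67, stood at 85.8, 43.0 and 17.3 CPM and topoisomerase Top2a at 57.2, 27.8 and 12.8 CPM. The sliding clamp Pcna, at 109.7, 45.3 and 55.0 CPM, and the replication licensing genes Mcm2, Mcm3 and Mcm5, at 28.7, 12.5 and 12.1 CPM, at 45.9, 18.2 and 24.6 CPM and at 36.7, 12.9 and 11.3 CPM, stood at like levels in HFD 2 and HFD 3. Other members stood further apart in these libraries: Ccnb2, a mitotic cyclin, stood at 10.6, 8.04 and 2.69 CPM, its kinase Cdk1 at 12.4, 7.72 and 3.16 CPM and the polo kinase Plk1 at 11.5, 7.71 and 2.86 CPM. Bub1, a mitotic checkpoint kinase, stood at 7.49, 3.39 and 2.54 CPM, so the mitotic genes were not alike in this. The thymidylate synthase gene Tyms, at 7.95, 8.13 and 4.27 CPM, was the 1 member not highest in HFD 1, and was not past 2-fold. The cell type that carried these transcripts was not tested.

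Promoters of mitotic genes are known for CCAAT boxes and for the cell cycle homology region, a TTTGAA-type element near the start. Of the 22 genes, 19 had a window, all but Ccna2, Aurkb and Tpx2. CCAAT, searched on both strands, was in 17 of the 19, as in 37.4% of all windows, and TTTGAA, searched on both strands, in 10 of the 19, as in 17.9% of all windows. Of the genes holding both, 3 mitotic ones, picked after the search, are shown in the same frame of 200 bases, RefSeq, GRCm38.p6, with the letters of either motif on either strand in capitals. Ccnb2 lies at chr9:70421505-70421704 on the minus strand, with 3 CCAAT and 1 TTTGAA, Cdk1 at chr10:69352863-69353062 on the minus strand, with 2 and 2, and Plk1 at chr7:122159285-122159484 on the plus strand, with 1 and 1. Each of the 3 genes was highest in HFD 1 and lowest in HFD 3.
Ccnb2: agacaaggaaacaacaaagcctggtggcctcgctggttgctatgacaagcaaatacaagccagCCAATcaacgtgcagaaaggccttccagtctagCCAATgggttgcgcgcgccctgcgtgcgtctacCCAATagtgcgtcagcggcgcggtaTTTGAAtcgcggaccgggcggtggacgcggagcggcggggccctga
Cdk1: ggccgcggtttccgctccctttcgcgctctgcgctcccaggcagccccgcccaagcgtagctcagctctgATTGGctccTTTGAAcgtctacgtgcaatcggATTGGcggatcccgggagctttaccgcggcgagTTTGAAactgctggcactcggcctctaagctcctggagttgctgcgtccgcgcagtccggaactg
Plk1: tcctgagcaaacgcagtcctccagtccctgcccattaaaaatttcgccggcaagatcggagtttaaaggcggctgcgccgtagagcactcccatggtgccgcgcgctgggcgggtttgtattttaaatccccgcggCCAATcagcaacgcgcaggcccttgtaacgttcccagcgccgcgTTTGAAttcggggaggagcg

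Of 20 cytokine and chemokine genes, 18 averaged at least 1 CPM, and 12 were past 2-fold, 9 with HFD 1 highest, against 8.97% of all genes. The monocyte attractants Ccl2 and Ccl7 stood at 35.5, 5.37 and 11.9 CPM and at 20.7, 3.90 and 3.07 CPM, tumour necrosis factor (Tnf) at 3.29, 0.188 and 0.568 CPM and the IL-1 receptor antagonist Il1rn at 71.7, 7.84 and 24.0 CPM. Ccl6 and Ccl9, which mouse macrophages make in quantity, stood at 663, 521 and 371 CPM and at 500.5, 219.6 and 267 CPM. Arginase 1 (Arg1) and the acute phase gene Saa3 were highest in HFD 2, at 13.2, 27.2 and 1.73 CPM and at 35.3, 108 and 24.3 CPM. Il1b, the pyrogenic cytokine, stood at 3.30, 2.87 and 1.27 CPM, and Il6 at 0.156, 1.23 and 0.770 CPM, below 1 CPM on average.

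Unfolded protein response genes, 12 in all, summed to 2977, 2494 and 2406 CPM, with a median ratio of 1.49 and 1 gene past 2-fold, against 17.2% of all genes, the asparagine synthetase Asns at 40.3, 93.5 and 92.6 CPM. The chaperone Hspa5 stood at 670.1, 609 and 500.5 CPM. Hypoxia genes, 10 in all, summed to 1217, 1835 and 1781 CPM, with 3 of the 9 above 1 CPM past 2-fold, against 17.2% of all genes. Lactate dehydrogenase (Ldha), at 606, 647 and 599.8 CPM, and the glycolytic kinase Pgk1, at 115, 110.0 and 111 CPM, differed little, while Bnip3 stood at 205, 566 and 449.6 CPM and the carbonic anhydrase Car9 at 2.65, 0.346 and 1.39 CPM. Circadian clock genes, 12 in all, summed to 575, 718 and 643 CPM. The core activator Arntl stood at 23.7, 32.4 and 24.4 CPM, the repressor Nr1d1 at 110.2, 105 and 101.2 CPM and the output gene Dbp at 11.4, 3.00 and 4.12 CPM. Past 2-fold were 2 of 12, Dbp and Per2, a share near the 17.2% of all genes. Immediate early genes, which respond within minutes to stimuli that include tissue handling, summed to 1066, 615 and 1165 CPM. Of 10 such genes, 4 were past 2-fold with HFD 2 lowest, against 7.67% of all genes. Egr1 stood at 169, 45.5 and 134 CPM, Fos at 191, 106 and 189 CPM and Atf3 at 88.3, 14.1 and 41.8 CPM.

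Genes of neighbouring organs and of blood were described to show what else the libraries held. Haemoglobin genes, with Alas2 and Bpgm, made up the erythrocyte list at 2009, 1257 and 1352 CPM, and the near-identical copies Hba-a1 and Hba-a2, and Hbb-bs and Hbb-bt, may share reads. Nerve genes summed to 71.0, 75.1 and 61.1 CPM, of which Mbp held 82.7%, while Sox10, the Schwann cell factor, was at 0.208, 0.0866 and 0 CPM. Skeletal muscle genes summed to 27.2, 33.1 and 20.5 CPM, of which Acta1 held 90.1%, and the muscle creatine kinase Ckm had no count. Of the kidney list, 11.1, 49.7 and 7.01 CPM, the endocytic receptor Lrp2 held 77.6%, at 6.35, 44.8 and 1.47 CPM with HFD 2 highest, as for the mesothelial genes, and Slc12a1 had no count. Lymph node stroma and skin or mammary epithelium summed to 25.6, 37.3 and 14.1 CPM and to 3.56, 9.04 and 3.43 CPM. In these lists Cxcl13, a B cell attractant, and Krt14, a basal keratin, were highest in HFD 2, at 9.65, 27.5 and 2.16 CPM and at 0.818, 6.90 and 0.284 CPM.

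Genes of the male accessory glands were present in all 3 libraries. The 9 seminal vesicle genes summed to 536, 566 and 639 CPM, a span of 1.19-fold. HFD 3 was highest for 9 of 9, against 33.3% of all genes, and none was past 2-fold, against 17.2%. Svs2, Svs4 and Svs5, abundant secretory proteins of the gland, stood at 207, 219 and 245 CPM, at 91.4, 97.8 and 112 CPM and at 97.6, 105 and 116 CPM. Svs2 held 38.6%, 38.7% and 38.4% of the list, and Svs5 18.2%, 18.5% and 18.2%, so the makeup of the list was nearly the same in the 3 libraries. The 13 epididymis genes summed to 60.5, 64.1 and 69.7 CPM, led by the glutathione peroxidase Gpx5 at 26.5, 29.4 and 30.9 CPM and Adam7 at 13.2, 14.4 and 16.6 CPM. Of the 8 with a mean of at least 1 CPM, again none was past 2-fold. Y-linked genes were present, with Ddx3y at 83.4, 115 and 88.5 CPM, and Xist had 20, 4 and 11 counts. Single libraries from treated mice held far more, and their levels are given here only as a possible source. Treated replicate 1 had 429880 CPM of the seminal vesicle list, while replicates 2 and 3 had 800 and 910 CPM. Treated replicate 3 had 53591 CPM of the epididymis list, while replicates 1 and 2 had 142 and 93.1 CPM. Whether the gland transcripts of the HFD libraries came with the tissue or by carry-over from those libraries was not tested, so these values cannot be read as what the pieces of tissue held. The total was also taken without the counts of these 2 lists, an alternative chosen after the data were seen. The same library was then highest for 44 of 44 lists. The seminal vesicle list held 0.0536%, 0.0566% and 0.0639% of counts and the epididymis list 0.00605%, 0.00641% and 0.00697%. Shares this small could hardly change an order, so this result bears on neither source of the gland transcripts.

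Genes often used as references for quantitative PCR were described next. Their median ratio was 1.23, against 1.38 over all genes, and 2 of 12 were past 2-fold, a share near the 17.2% of all genes: cyclophilin A (Ppia) at 397, 188 and 196 CPM and beta-glucuronidase (Gusb), a lysosomal enzyme, at 315, 125 and 174 CPM. Both were highest in HFD 1, as the macrophage genes were. Beta-actin (Actb) stood at 2398, 1327 and 1635 CPM. Rplp0, Hprt and Tbp stood at 583, 564 and 511 CPM, at 137, 170.0 and 169 CPM and at 27.8, 24.3 and 30.0 CPM, with ratios of 1.14, 1.24 and 1.23, and Ywhaz, with a ratio of 1.09, stood at 268, 248 and 247 CPM. Gapdh had 19.8, 22.9 and 14.0 CPM, an uncertain value, since its many near-identical pseudogene copies could split the reads.

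The 8 genes with the smallest spread above a mean of 50 CPM included Slc39a7, Cul3, Upf1, Oxr1, Emc7, Sin3b and Zfp652, genes of zinc transport, protein modification, RNA decay and other housekeeping tasks. Their CV ran from 0.23% to 0.41%, below the counting error of each gene, as the lowest of many genes will be, so they describe this ranking and were not tested as references. Cul3, a ubiquitin ligase scaffold, stood at 120.2, 120.2 and 121 CPM.

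Genes that set 1 library apart were taken by the size of its ratio to the nearer of the others, at a mean of at least 20 CPM, and were chosen for that ratio. In HFD 1 the 8 highest by this ratio included the matrix and progenitor genes Col14a1, Cpxm1, Pi16 and Lum, the macrophage and myeloid genes Cd180 and Siglec1, and Zranb3, a DNA repair helicase. Col14a1, a collagen of fibril surfaces, stood at 199.7, 30.4 and 39.0 CPM, 5.12-fold higher in HFD 1, and Siglec1, the sialoadhesin of tissue macrophages, at 509, 118 and 136 CPM. The 5 lowest in HFD 1 included Cyp2e1, Adam1a, Mycl and Zim1. Cyp2e1, a cytochrome P450 that oxidises ethanol and ketones and is known from liver and fat, stood at 57.2, 2939 and 746 CPM, a rank by FPKM of 1693, 30 and 82. It was thus among the 100 most abundant genes in HFD 2 and HFD 3 and far below them in HFD 1, with a span of 51.4-fold.

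In HFD 2, 4 of the 8 genes with the largest ratio were in the mesothelial list, Msln, Upk1b, Upk3b and Lrrn4. The others were the proteoglycan Spock2, at 8.68, 107 and 10.5 CPM, the small heat shock protein Hspb7, at 42.9, 388 and 52.3 CPM, Pkhd1l1, at 13.6, 83.0 and 2.53 CPM, and the calcium channel gene Cacna1e, at 16.8, 100.9 and 10.9 CPM. The 5 lowest in HFD 2 included Psd3, Fam126b, Mmp12 and Clec12a. Clec12a, an inhibitory lectin of myeloid cells, stood at 126, 8.47 and 40.8 CPM. Psd3, at 51.4, 4.10 and 45.7 CPM, and Fam126b, at 56.7, 7.35 and 57.0 CPM, were each at like levels in HFD 1 and HFD 3.

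HFD 3 stood apart by smaller ratios, at most 2.79-fold, for Ces1f, a carboxylesterase, at 28.5, 23.8 and 79.4 CPM. The others were Thrsp, Adrb3, the matrix signalling gene Ccn1, the N-acetylaspartate synthase Nat8l, at 28.6, 17.0 and 68.7 CPM, and Fbxo21, Chst1 and Kif26a. The 5 lowest in HFD 3 included Msln and Pkhd1l1 again, with Chil3, the collagen gene Col6a5, at 105, 50.6 and 11.4 CPM, and the nuclear receptor Rora, at 32.0, 74.5 and 4.03 CPM.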

How the data were processed

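White fat of the HFD group was measured in 3 libraries, grouped by the labels for diet and treatment. Trizol extraction, poly(A) selection, a strand-marking dUTP protocol and paired-end NovaSeq sequencing are described per the labels' protocols. Raw counts per gene, whole numbers without normalization, were deposited together with FPKM values that the authors had calculated, per the file headers. Count and FPKM gave the same ratio between libraries within 0.05 log2 of the median for at least 99.95% of genes with 200 counts or more. The submitters' processing notes name cutadapt 1.9, HISAT2 2.2.1 and StringTie 2.1.6, and also DESeq2 and edgeR, with no role for any. The counter, the strand setting and the build were not given in the sources used here. GENCODE M21 held 99.7% of the gene identifiers, 91.0% of them at the same GRCm38 coordinates. Without a strand setting, overlapping genes may share reads, and near-identical copies may too.

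Rows sharing a symbol were summed, turning 32819 rows into 32759 genes, and 0 columns of the table were left without a sample. CPM was computed from total counts. Spread was described by the ratio of highest to lowest library, the CV and edgeR 4.0.16 (R 4.3.3) common dispersion with TMM scaling and an intercept only, on 14689 genes with a mean of at least 1 CPM. These steps were tested on simulated counts. DESeq2 1.42.0 gave alternative size factors (1.078, 0.905 and 1.021) and dispersions. Wilson intervals and the limit of 3 counts cover counting error only. Promoter windows are from RefSeq, GRCm38.p6.

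The 44 gene lists, the members and the tests were chosen with earlier results of these data known. Genes were named by a rule: the 20 with the highest mean FPKM and at least 1000 mean counts; the 7 markers; per library the 8 with the largest and the 5 with the smallest ratio to the nearer of the others at 20 CPM or more; the 8 with the smallest spread at 50 CPM or more; in each list the 3 with the highest FPKM and the 1 with the largest ratio; and all members of lists of at most 7. Other genes named, in lists or among those in 1 library's 100 highest, were chosen after their values were seen. Alternatives were other scalings, filters and pseudocounts, FPKM in place of counts, lists without their most abundant member, and each library left out. Some genes that the naming rule picked are not reported here.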

Additional observations from a re-analysis of the deposited data

How the results depend on the processing

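The count of genes past 2-fold was 2526 and stayed within 1.5 times of that under TMM scaling, DESeq2 size factors, a pseudocount of 0.1 CPM, no filter, and the authors' FPKM, which gave the lowest of these, 1792. With FPKM the pseudocount was 0.5 FPKM in place of 0.5 CPM, so 1792 is not at a like threshold. The count was 1212 with a mean of at least 10 CPM, where 9846 genes were tested, and ran from 1087 to 1769 with 1 library left out. The biological coefficient of variation, 0.326, was 0.469 with no filter on low counts and 0.259 with a mean of at least 10 CPM. It ran from 0.290 to 0.357 with 1 library left out. The square root of the median of DESeq2's gene-wise dispersions was 0.169. These are different statistics, since edgeR's is 1 value fitted over all genes and DESeq2's a median over genes, and the cause of their difference was not tested. The lowest correlation between libraries, 0.95, was 0.982 with no filter on low counts. Of the 20 most abundant genes, 15 were also in the 20 highest by CPM, and 18 to 19 with 1 library left out. The highest library was the same for 43 of 44 lists under TMM scaling, the exception being the extracellular matrix list, and for 32 of 44 without the most abundant member of the list. Without that member the progenitor and fibroblast list had a mean of 1428 CPM and the mural list 788 CPM, by construction lower, and without mitochondrial counts the mural list had 1551 CPM. Without HFD 2 the mesothelial list had 67.3 CPM, without HFD 1 it had 323 CPM and without HFD 3 it had 359 CPM. No paired analysis was possible because only 1 group is described. Genes under about 0.04 CPM in a library are below what these depths can show, and with 3 libraries a spread is known with little precision.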

Other observations

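Genes that glucocorticoid hormones are known to induce were looked at as a list after the single-library genes had been seen, so the list and its order are a description chosen on these data. The 9 genes summed to 988, 3041 and 1992 CPM. HFD 2 was highest for 8 of 9, against 26.3% of all genes, and 6 were past 2-fold with HFD 2 highest and HFD 1 lowest, against 5.27% and 3.89%. Fkbp5, a chaperone that restrains the glucocorticoid receptor, stood at 50.3, 518 and 89.8 CPM, 10.3-fold between highest and lowest. Tsc22d3, which encodes the anti-inflammatory protein GILZ, stood at 134, 324 and 244 CPM, Zbtb16, a transcription factor, at 62.8, 228 and 127 CPM, and Pdk4, the kinase that holds back glucose oxidation, at 336, 1111 and 821 CPM. The metallothioneins Mt1 and Mt2 stood at 56.0, 181.9 and 103 CPM and at 28.8, 161 and 52.9 CPM. Sgk1, a kinase of salt transport, was the exception, at 118, 159.8 and 226 CPM with HFD 3 highest, and Klf9 and Per1 were not past 2-fold, at 94.3, 167 and 154 CPM and at 108, 191 and 174 CPM.

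A few genes with a large ratio in 1 library were picked for it. Adam1a, a gene of the ADAM family known from sperm, stood at 3.29, 29.3 and 33.4 CPM, while Mapkapk5, a stress kinase gene that overlaps it on the same strand, stood at 32.6, 13.6 and 11 CPM, and the overlapping predicted gene Gm42878 at 7.92, 0.880 and 0.162 CPM. How reads were split between these overlapping genes was not tested. Zranb3 stood at 45.4, 5.63 and 11.5 CPM, with HFD 1 highest. The pseudogene Rpl28-ps1 overlaps it on the other strand, at 4.47, 3.45 and 4.58 CPM, and without a stated strand setting the reads of the pair cannot be told apart.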
